A study of Mus musculus with 6 samples.

Results

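The genes described here are peroxins, peroxisomal ABC transporters and peroxisomal enzymes, measured by bulk RNA-Seq in mouse livers after an acetaminophen (APAP) overdose. They were taken as the rows of the deposited table whose gene name equalled 1 of 31 listed symbols, and all 31 were found among the 34745 genes of that table. Peroxisomes are small organelles in which oxidases shorten very long and branched fatty acids, break down urate, D-amino acids and glycolate, and pass the hydrogen peroxide they make to catalase. Peroxins (Pex proteins) build the organelle: they place proteins in its membrane, carry enzymes into its lumen and divide it. In rodent liver the organelle is abundant, and many of its genes are induced by the fatty acid receptor PPARα.

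The compared livers came from wild-type mice. One group received APAP at 300 mg/kg and was sampled at 12 h, and the other received saline. The animals are described as male C57BL/6J mice of 8 to 10 weeks. Both groups were fasted for 12 h before the injection into the peritoneum. Each group has 3 samples, and 5 libraries were analysed, namely APAP replicates 1 and 3 and the saline libraries named WT1, WT2 and WT3. APAP replicate 2 was not analysed here. The sources used here give no mouse for each library, so p-values measure the spread between these libraries, which may in part be technical.

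The libraries held between 13378445 and 15976339 counts, and 3 counts, taken as the limit of detection for counting error only, equalled 0.176 to 0.269 CPM (counts scaled to library size with TMM factors). Of 13734 genes tested with edgeR's quasi-likelihood test, 508 (3.70%) were higher and 485 (3.53%) lower with APAP at a Benjamini-Hochberg adjusted p under 0.05, called the test below, and the median log2 fold change over all of them was 0.03. Albumin, the main product of hepatocytes, made up 6.56% to 11.3% of each library. The libraries labelled by treatment also differed in sex-linked genes. Xist, the RNA of the inactive X chromosome, had 0.764 and 1.73 CPM with APAP and between 290 and 914 CPM with saline, whereas the 4 Y-linked genes read were at 12.7 CPM or more in both APAP libraries and at 0.0668 CPM or less in every saline library. In all comparisons below, treatment and sex therefore cannot be told apart.

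Of the 31 genes, 30 had enough counts to be tested, and 5 of the 30 (16.7%) passed the test, beside 7.23% of all genes tested. All 5 were lower in the APAP livers, where the background in that direction was 3.53%. They were Agxt and Pipox, both enzymes of amino acid and glyoxylate breakdown, Uox, which oxidizes urate, Pecr, a reductase of phytol breakdown, and Pex13, a docking protein for imported enzymes. Uox had 32.2% of its saline level and Pecr 17.5%. No gene of the 30 was higher at that threshold by edgeR's quasi-likelihood test, against 3.70% of all genes, and 2 were higher at the unadjusted thresholds given below. DESeq2 called 9 of the 30, beside 2093 of all 13734 genes. With it, Pex7, Pex6 and Hacl1 were also lower and Acox2 was higher. The 5 calls depended on single libraries: 0 remained without APAP replicate 1, 0 without APAP replicate 3, 0 without saline library WT2 and 2 (Agxt and Pipox) without WT1. Without WT3, 4 genes were called, Agxt, Pipox and Pecr as lower and Pex11a as higher. Calls over all genes also fell with 1 library left out, from 993 to between 165 and 922. In each of these fits the 5 genes were still lower with APAP. Their APAP libraries all lay below every saline library, so leaving 1 out could hardly change that direction.

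The DNA just before the start site of these 5 genes is printed because they are the genes on which the comparison turns. Sequences are from RefSeq (GRCm38.p6), 5′ to 3′ on the strand of the gene, cover 250 bases up to the start site and show each CG pair in capitals. The windows are chr1:93134990-93135239 for Agxt (plus strand), chr11:77893873-77894122 for Pipox (minus), chr3:146596899-146597148 for Uox (plus), chr1:72284322-72284571 for Pecr (minus) and chr11:23665884-23666133 for Pex13 (minus). The Uox window lies well inside the counted locus of that gene, 146570426 to 146632305, and not at its start.
Agxt: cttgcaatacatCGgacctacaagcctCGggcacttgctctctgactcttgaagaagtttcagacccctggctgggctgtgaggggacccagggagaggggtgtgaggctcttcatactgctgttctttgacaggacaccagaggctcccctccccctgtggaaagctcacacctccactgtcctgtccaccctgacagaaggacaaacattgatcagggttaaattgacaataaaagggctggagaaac
Pipox: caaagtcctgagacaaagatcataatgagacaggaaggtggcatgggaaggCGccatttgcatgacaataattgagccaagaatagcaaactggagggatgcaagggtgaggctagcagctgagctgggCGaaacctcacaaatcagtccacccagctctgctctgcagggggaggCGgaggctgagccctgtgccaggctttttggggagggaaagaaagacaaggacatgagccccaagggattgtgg
Uox: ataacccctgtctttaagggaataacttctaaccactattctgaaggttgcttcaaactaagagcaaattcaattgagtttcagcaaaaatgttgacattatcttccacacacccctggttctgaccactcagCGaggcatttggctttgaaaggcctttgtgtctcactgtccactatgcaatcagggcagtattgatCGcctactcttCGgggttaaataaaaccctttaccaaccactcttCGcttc
Pecr: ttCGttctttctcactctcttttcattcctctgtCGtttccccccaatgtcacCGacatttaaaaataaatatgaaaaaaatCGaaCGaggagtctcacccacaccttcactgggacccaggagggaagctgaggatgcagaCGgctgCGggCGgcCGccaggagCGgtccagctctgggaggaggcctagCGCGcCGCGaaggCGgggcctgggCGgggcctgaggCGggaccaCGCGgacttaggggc
Pex13: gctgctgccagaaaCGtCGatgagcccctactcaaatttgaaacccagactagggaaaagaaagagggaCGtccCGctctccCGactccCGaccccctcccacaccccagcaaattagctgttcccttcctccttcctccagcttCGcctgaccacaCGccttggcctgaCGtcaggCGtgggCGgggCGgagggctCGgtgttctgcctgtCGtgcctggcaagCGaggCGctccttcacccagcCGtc
CG pairs were few before Agxt and Pipox and many before Pecr and Pex13. Over the full window of 250 bases before and 50 after the start, the observed over expected CG ratio was 0.136 for Agxt, 0.139 for Pipox, 0.45 for Uox, 0.826 for Pecr and 0.73 for Pex13. Windows were given for 26 of the 31 genes. The 11 peroxins among them had a median ratio of 0.843 and the 15 transporters and enzymes one of 0.676, taking the highest window of each gene. Over all 27025 genes with a window, not limited to the genes tested here, the median was 0.415. Over the 26 genes the ratio ran from 0.136 to 1.12, and the 5 genes that passed the test spread from 0.136 to 0.826.

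The group with the lowest median log2 fold change was that of the oxidases and of glyoxylate breakdown, where 3 of 4 tested genes fell and the median was −1.65. The summed level of this group was 719 and 1359.9 CPM with APAP and 2975, 2999.9 and 3104 CPM with saline. Agxt (alanine-glyoxylate aminotransferase, chromosome 1, 93135240 to 93145421 of GRCm38) turns glyoxylate into glycine and so limits oxalate. It was at 106 and 119 CPM in APAP replicates 1 and 3 and at 409, 351 and 303 CPM in WT1, WT2 and WT3. The APAP libraries lay close together and far below the lowest saline library. The means were 112 ± 9.31 CPM (SD, n = 2) and 354 ± 53.5 CPM (SD, n = 3), and edgeR's quasi-likelihood test gave a log2 fold change of −1.66 (SE 0.26, adjusted p = 0.0165). It was still called without WT1 or WT3, but not without APAP replicate 1, APAP replicate 3 or WT2, where the adjusted p was 0.129, 0.0698 and 0.0805 by the same test.

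Pipox (chromosome 11, 77880615 to 77894096) oxidizes L-pipecolate, a product of lysine, and sarcosine. It had 77.4 and 92.7 CPM in the APAP libraries and 288, 359 and 243 CPM in the saline libraries. As for Agxt, both APAP libraries stood well below all saline libraries. The log2 fold change was −1.80 (SE 0.28, adjusted p = 0.0162 by edgeR's quasi-likelihood test), a fall to 28.7% of the saline mean. It passed the test without WT1 or WT3, and had an adjusted p of 0.128 without APAP replicate 1, of 0.0651 without APAP replicate 3 and of 0.0723 without WT2.

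Uox, urate oxidase, forms the crystalline core seen in rodent peroxisomes and has the highest CPM of all 31 genes in the saline livers. Its locus is on chromosome 3, from 146570426 to 146632305. It was at 493 and 942 CPM after APAP and at 2131, 2154 and 2404 CPM with saline. The saline libraries were nearly equal, the APAP libraries differed 1.91-fold, and the groups did not overlap. The log2 fold change was −1.64 (SE 0.37, adjusted p = 0.0479 by edgeR's quasi-likelihood test). This call was near the threshold and was lost without any 1 of the 5 libraries, with an adjusted p of 0.0553 without APAP replicate 3, 0.0855 without WT1, 0.086 without WT3, 0.151 without WT2 and 0.22 without APAP replicate 1 in that test.

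Hao1, glycolate oxidase, makes the glyoxylate that Agxt removes. It had 42.8 CPM in APAP replicate 1, 207 CPM in APAP replicate 3, and 146, 136 and 155 CPM in the saline libraries. One APAP library was far below and the other above every saline library, a 4.82-fold gap that was the widest among the 30 genes. The log2 fold change was −0.23 (95% interval −1.58 to 1.13, adjusted p = 0.848 by edgeR's quasi-likelihood test), was 0.51 without APAP replicate 1 and was −1.78 without APAP replicate 3, where the adjusted p was 0.0513. Dao, D-amino acid oxidase, had 0 counts in all 5 libraries, which allows up to 0.176 to 0.269 CPM per library.

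The second group with low values was that of alpha-oxidation and phytol breakdown, which deals with branched lipids from the diet. All 3 of its genes had both APAP libraries below every saline library, where the share over all genes tested was 20.1%. Of the 3, only Pecr passed the test. The summed level was 762 and 973 CPM after APAP and 1942, 1635 and 1339.6 CPM with saline. Pecr (peroxisomal trans-2-enoyl-CoA reductase, chromosome 1, 72259167 to 72284314) was at 21.5 and 34.4 CPM after APAP. It was at 205, 184 and 91.7 CPM in the saline libraries. WT3 was at 0.472 times the mean of the other saline libraries, and the higher APAP library had 37.6% of its level. The log2 fold change was −2.52 (SE 0.43, adjusted p = 0.0221 by edgeR's quasi-likelihood test), the lowest among the 30 genes. It remained past the test without WT3 (−2.80), and had adjusted p-values of 0.0527 without WT1, 0.0625 without APAP replicate 3, 0.0885 without WT2 and 0.146 without APAP replicate 1. An antisense gene, D230017M19Rik, overlaps 11.5% of the exon bases of Pecr, and the strand setting of the counting is not given in the sources used here. Such overlap was larger for Pex11g (41.1%), Pex14 (28.3%) and Acot8 (12.3%), none of which passed the test.

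Phyh, phytanoyl-CoA hydroxylase, performs the first step of alpha-oxidation. Its values were 572 and 849 CPM after APAP and 1270.2, 1109.8 and 1020.3 CPM with saline. The groups did not overlap, but the log2 fold change of −0.67 (SE 0.30) had an adjusted p of 0.223 in edgeR's quasi-likelihood test. Hacl1, the 2-hydroxyacyl-CoA lyase that cleaves the product of Phyh, was at 168 and 89.6 CPM after APAP and at 468, 341 and 228 CPM with saline. Again no APAP library reached a saline library, and the log2 fold change was −1.42 (SE 0.42, adjusted p = 0.0906 by the same test). The Hacl1 count is uncertain, since 55.6% of the 50-base words of its transcript also occur in another gene model, Gm49387.

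**Figure D1:**
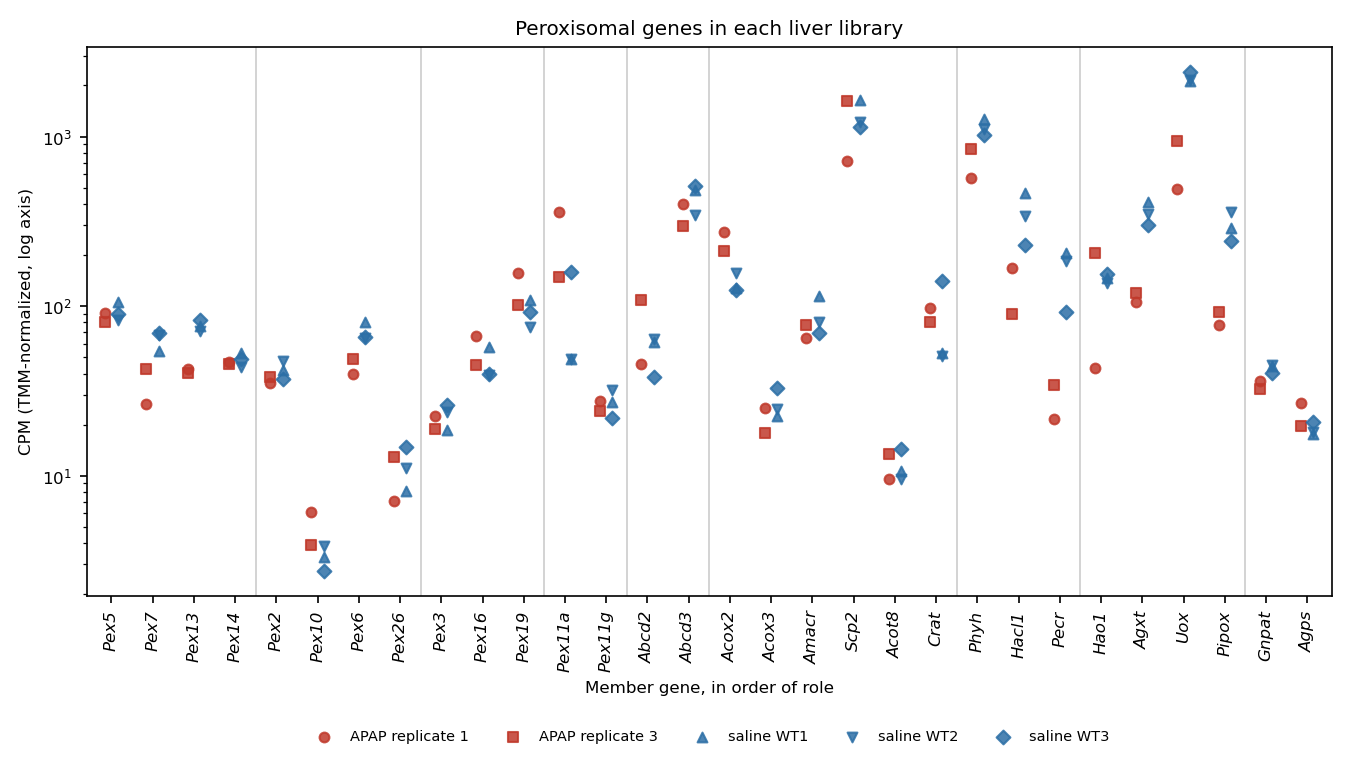
CPM of each tested gene (log axis) in the 2 APAP libraries (red) and the 3 saline libraries (blue), with grey lines between roles. Agxt, Uox, Pipox, Pecr and Pex13 have both red points below all blue points, Hao1 has its red points on either side of the blue ones, and Dao, at 0 counts, is not drawn.

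The import machinery was lower in part. Pex13 (chromosome 11, 23646479 to 23665959) sits in the membrane and, with Pex14, docks the receptors that carry enzymes to the organelle. It was at 42.7 and 40.4 CPM after APAP and at 75.8, 71.7 and 82.4 CPM with saline. Both groups were narrow and well apart, with means of 41.5 ± 1.62 CPM (SD, n = 2) and 76.6 ± 5.43 CPM (SD, n = 3). The log2 fold change of −0.88 (SE 0.20, adjusted p = 0.0441 by edgeR's quasi-likelihood test) lay between −0.93 and −0.83 when any 1 library was left out. The call was lost in each of those fits, with adjusted p-values of 0.0722 without WT3, 0.0726 without WT1, 0.131 without WT2, 0.197 without APAP replicate 3 and 0.224 without APAP replicate 1. Scaling by library size alone gave −0.49, with an adjusted p of 0.197 by this test.

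Pex7, the receptor for enzymes with an N-terminal signal (Phyh among them), was at 26.5 and 42.3 CPM after APAP and at 54.6, 67.6 and 69.1 CPM with saline. Its groups did not overlap, and edgeR's quasi-likelihood test gave −0.89 (SE 0.27, adjusted p = 0.096). Pex5, the receptor for the more common C-terminal signal, had 90.5 and 80.4 CPM against 105.9, 82.5 and 89.99 CPM. Pex14 had 46.7 and 45.6 CPM against 53.1, 43.5 and 49.0 CPM. For these 2 genes the groups overlapped, and the 95% intervals of the log2 fold change were −0.63 to 0.39 and −0.53 to 0.39.

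Among the peroxins that recycle the receptors, Pex6, the ATPase that pulls them out of the membrane, was at 39.5 and 48.5 CPM after APAP and at 81.0, 65.2 and 65.8 CPM with saline. The groups stood apart (−0.68, SE 0.22, adjusted p = 0.112 by edgeR's quasi-likelihood test). Pex26, its membrane anchor, and Pex2, a subunit of the RING ubiquitin ligase, overlapped between groups with log2 fold changes of −0.19 and −0.21. Pex10, another subunit of that ligase and the lowest of the 30 genes in CPM, had 6.11 and 3.89 CPM against 3.32, 3.85 and 2.74 CPM. Both APAP values were above the saline ones, the lower of them only just, and the difference did not pass the test (0.60, SE 0.36, adjusted p = 0.361 by edgeR's quasi-likelihood test). The 3 genes that insert membrane proteins, Pex3, Pex16 and Pex19, overlapped between groups, with log2 fold changes of −0.14, 0.30 and 0.49.

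Pex11a, which elongates peroxisomes before they divide and is a textbook PPARα target, had the most unequal values among the peroxins. It was at 359 and 148 CPM after APAP and at 48.6, 49.0 and 158 CPM with saline. WT3 lay 3.24-fold above the mean of WT1 and WT2 and above the lower APAP library, so the groups overlapped. The log2 fold change was 1.57 (SE 0.61, 95% interval 0.12 to 3.02, adjusted p = 0.172 by edgeR's quasi-likelihood test), and without WT3 it was 2.38 and passed the test with an adjusted p of 0.0372. Without APAP replicate 1 it was 0.80, with an adjusted p of 0.651. Pex11g, its paralog, overlapped between groups at a log2 fold change of −0.06.

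The transporters and the enzymes for branched chains and bile acid side chains gave no call among 8 genes. Acox2, the oxidase that shortens bile acid precursors, had 275 and 212 CPM after APAP and 128, 157 and 125 CPM with saline. Both APAP libraries lay above all saline libraries, and the log2 fold change was 0.83 (SE 0.24, adjusted p = 0.0852 by edgeR's quasi-likelihood test). It passed the test with DESeq2 (adjusted p = 0.0112) and with scaling by library size only, where it was 1.23 (adjusted p = 0.044 by edgeR's quasi-likelihood test). Scp2, the thiolase and sterol carrier, had 720 CPM in APAP replicate 1 and 1622 CPM in APAP replicate 3, beside 1645, 1219 and 1131 CPM with saline, and 41.4% of its 50-base words are shared with a pseudogene, Scp2-ps2. Crat, carnitine acetyltransferase, had 97.4 and 80.2 CPM against 52.9, 50.8 and 141 CPM, with WT3 again the highest library. Abcd2, a transporter of very long chains, had 45.7 and 109 CPM against 61.2, 63.7 and 38.1 CPM, with APAP replicate 1 inside the saline range and APAP replicate 3 above it. The log2 fold changes of the other 4 genes were −0.36 for Abcd3, a transporter of branched and dicarboxylic acids, −0.32 for the oxidase Acox3, −0.31 for the racemase Amacr and −0.01 for the thioesterase Acot8. Their groups overlapped.

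The first enzymes of ether lipid synthesis gave no call. Gnpat, the acyltransferase, had 36.3 and 32.3 CPM after APAP and 44.5, 45.2 and 40.1 CPM with saline, a separation without overlap at a log2 fold change of −0.34 (SE 0.19, adjusted p = 0.329 by edgeR's quasi-likelihood test). Agps, which exchanges the acyl for an alkyl chain, had 26.9 and 19.5 CPM against 17.7, 18.0 and 20.8 CPM, and its groups overlapped (0.30, SE 0.22).

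**Figure D2:**
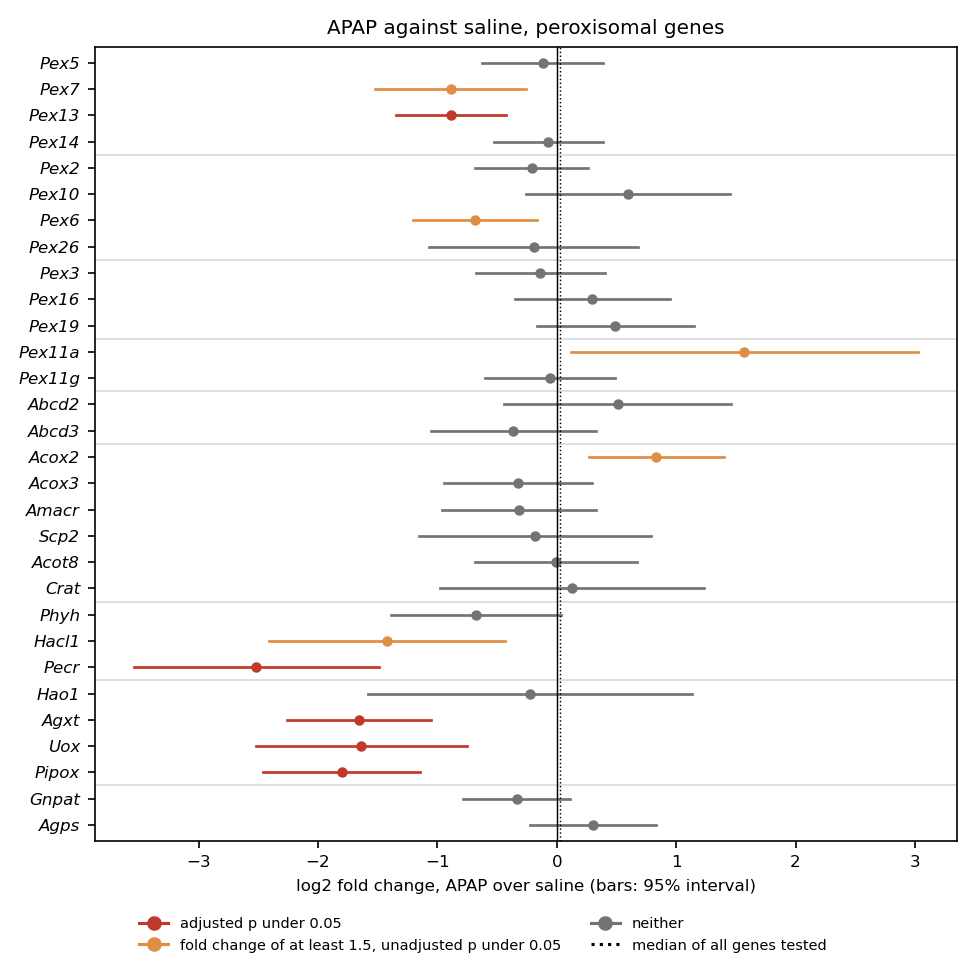
Log2 fold change of each tested gene, APAP over saline, with its 95% interval from edgeR's quasi-likelihood model, in order of role. The 5 red genes have an adjusted p under 0.05 and lie between −2.52 and −0.88, and the dotted line marks the median of all genes tested, 0.03.

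Counted over the 30 genes, 22 had a negative and 8 a positive log2 fold change, with a median of −0.20. The APAP libraries were below all saline libraries for 10 genes (33.3%) and above them for 2 (6.67%), while over all genes tested these shares were 20.1% and 24.0%, together 44.1%. With the study's thresholds, a fold change of at least 1.5 and p under 0.05, here without adjustment, 8 genes (26.7%) were lower and 2 (6.67%) higher. The background at those thresholds was 11.2% lower and 12.3% higher, together 23.5%. Beyond the 5 genes of the test, the lower ones were Pex7, Pex6 and Hacl1, and the higher ones Pex11a and Acox2. Scaling by library size alone moved the median of all genes to 0.42 and that of the 30 genes to 0.16, and 13 of the 22 genes with a negative value then had a positive one, none of them called.

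Levels between genes were compared per length, as RPKM in the saline livers from the CPM and the exon bases of each gene. The exon bases are those of all annotated transcripts together. For Uox they were 5007, beside 2737 in its longest coding transcript, and for Phyh 1893 beside 1438. The order of these 2 genes depends on which length is used. Phyh was highest at 599 ± 66.9 RPKM (SD, n = 3), followed by Uox at 445 ± 30.2 and Scp2 at 383 ± 79.0, whose saline ranges overlapped. Agxt, at 209 ± 31.5 RPKM, lay below these without overlap. Pipox (120 RPKM), Pecr (106), Hacl1 (69.8), Abcd3 (67.6) and Hao1 (63.9) each overlapped with their neighbour. All 13 peroxins were below that, from 26.8 RPKM for Pex11a to 1.001 RPKM for Pex10. The enzymes that fell were thus among the most abundant transcripts of the organelle, and Pex13, at 16.5 RPKM, was an intermediate one.

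The rest of the organelle was read from a list of 61 other peroxisomal genes, of which 60 were in the table and 56 were tested. Of these, 2 passed the test (3.57%, beside 7.23% of all genes), 1 in each direction. At the study's thresholds, 14 (25%) were lower and 2 (3.57%) higher, beside 11.2% and 12.3% of all genes, and for 24 (42.9%) both APAP libraries were below all saline libraries, beside 20.1%. DESeq2 called 16 of them, 14 lower and 2 higher, beside 2093 of all 13734 genes. Gstk1, glutathione transferase kappa, fell from 121, 96.4 and 103 CPM with saline to 43.0 and 40.7 CPM, with no overlap (log2 fold change −1.35, SE 0.22, adjusted p = 0.0181 by edgeR's quasi-likelihood test). Ehhadh, the bifunctional enzyme of peroxisomal beta-oxidation and a PPARα target, rose from 403, 249 and 520.0 CPM to 1482 and 1021 CPM. Its lowest APAP library was above its highest saline library (1.68, SE 0.37, adjusted p = 0.0444 by the same test). The call of Ehhadh was lost without APAP replicate 1 (adjusted p = 0.218), APAP replicate 3 (0.0792), WT1 (0.0995) or WT2 (0.143), and that of Gstk1 without APAP replicate 1 (0.129), APAP replicate 3 (0.0978) or WT2 (0.0723), all by edgeR's quasi-likelihood test.

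Hsd17b4, the other bifunctional enzyme of that pathway, had 332 and 342 CPM after APAP and 384, 302 and 434 CPM with saline. Its groups overlapped, with a log2 fold change of −0.15 (SE 0.26). Cat, catalase, had 896 and 1252 CPM against 3118, 2555 and 1831 CPM, groups that were apart, but with an adjusted p of 0.0951 in edgeR's quasi-likelihood test (−1.22, SE 0.37). It was called as lower by edgeR's likelihood ratio test (adjusted p = 0.0213), edgeR's exact test (0.0237) and DESeq2 (0.0021). Over the 56 genes, 43 had a negative log2 fold change and the median was −0.36.

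PPARα itself, Ppara, had 101 and 88.9 CPM after APAP and 48.2, 71.3 and 105 CPM with saline, and its groups overlapped. Rxra, the partner with which it binds DNA, had 275 and 305 CPM against 411, 415 and 446 CPM, without overlap (−0.55, SE 0.23, adjusted p = 0.197 by edgeR's quasi-likelihood test). The coactivator Ppargc1a had 16.6 and 13.9 CPM against 12.6, 23.7 and 59.5 CPM, with WT3 highest. Of 15 PPARα targets outside peroxisomes, 2 passed the test, both higher, where the background in that direction was 3.70%: the lipid droplet genes Plin2 (1903 and 1616 CPM against 290, 143 and 505 CPM) and Cidec (101 and 25.96 CPM against 0.448, 0.332 and 2.14 CPM). Their log2 fold changes were 2.49 and 5.98, with adjusted p-values of 0.0352 and 0.0136 in edgeR's quasi-likelihood test. By that test Plin2 was not called without APAP replicate 1 (adjusted p = 0.146), APAP replicate 3 (0.0838), WT1 (0.0957) or WT2 (0.0881), nor Cidec without APAP replicate 1 (0.0551), WT1 (0.0502) or WT2 (0.0663), and the log2 fold change of Cidec ran from 4.70 to 7.34 with 1 library left out. WT3 exceeded the mean of WT1 and WT2 by over 1.5 times in 10 of these 15 genes and in 3 of the 30 genes described above, which were Pex11a, Crat (2.71-fold) and Pex26 (1.54-fold). The 5 genes that passed the test were not among those.

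**Figure D3:**
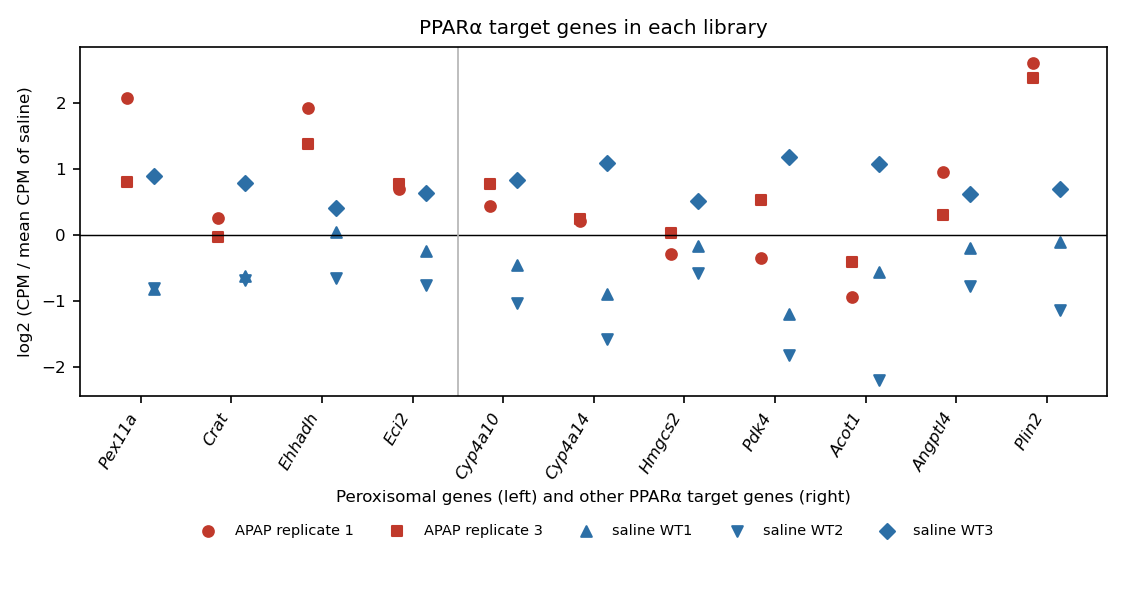
Log2 of CPM over the mean of the saline libraries for 4 peroxisomal PPARα targets (left) and 7 others (right), chosen after their values were seen. WT3 (diamonds) is the highest saline library in every gene shown, 3.24-fold above the mean of WT1 and WT2 for Pex11a. It exceeded that mean by over 1.5 times in 10 of the 15 targets outside peroxisomes. For Fabp1, a target not drawn, WT3 was at 0.585 times that mean. Both APAP libraries exceed all saline libraries for Ehhadh, Eci2 and Plin2.

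Marker genes of other cells and of liver zones were read beside these results. Of 10 markers of hepatocytes near the central vein, 7 passed the test and were lower, and their summed level was 1047 and 1969.7 CPM after APAP and 8099 to 13539.6 CPM with saline. Of 10 periportal markers 4 were lower, with sums of 6034 and 6425 CPM against 12501 to 13053 CPM. Of the 10, 7 had both APAP libraries below all saline libraries and 2, Sdsl and Hsd17b13, had both above them. The log2 fold changes of these 2 were 1.07 and 0.41, and neither passed the test. Of 7 general hepatocyte markers none passed edgeR's quasi-likelihood test and 2 were lower by the study's thresholds given above, with sums of 78036 and 121179 CPM against 120959 to 165134 CPM. No marker of these 3 lists was at 0 in any library. Of 7 tested neutrophil markers 6 were higher, with sums of 116 and 76.7 CPM against 5.38 to 8.35 CPM. Of 5 tested cholangiocyte markers 2 were higher (Sox9 and Spp1). All 5 had both APAP libraries above all saline libraries, beside 24.0% of all genes tested. The sums were 347 and 356 CPM against 47.1 to 52.3 CPM. Spp1 alone made up 276 and 313 CPM of these sums, against 37.7 to 42.6 CPM with saline. Krt19 and Epcam were only just above saline in APAP replicate 3, at 2.72 and 2.41 CPM against at most 2.54 and 2.34 CPM. Of 8 stellate cell markers 1 was higher, and of 8 macrophage, 8 endothelial and 4 tested lymphocyte markers none passed edgeR's quasi-likelihood test, while 2, 1 and 0 of them were higher at the study's thresholds. All 5 genes described as lower thus fell where most zonal hepatocyte markers fell and neutrophil and cholangiocyte markers rose. The part of those cells in the result was not tested. In bulk tissue, fewer cells of a type and less RNA per cell cannot be told apart.

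The direction of the 5 differences was the same in every other fit. Over 13 of them, which changed the test, the scaling, the filter or left out 1 library, each of the 5 genes stayed lower with APAP. Because both APAP libraries lay below every saline library for these genes, that direction was largely fixed in advance and gives no added support. Agxt and Pipox passed the test in 10 of the 13, Pecr in 9, Uox in 8 and Pex13 in 7.

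**Figure D4:**
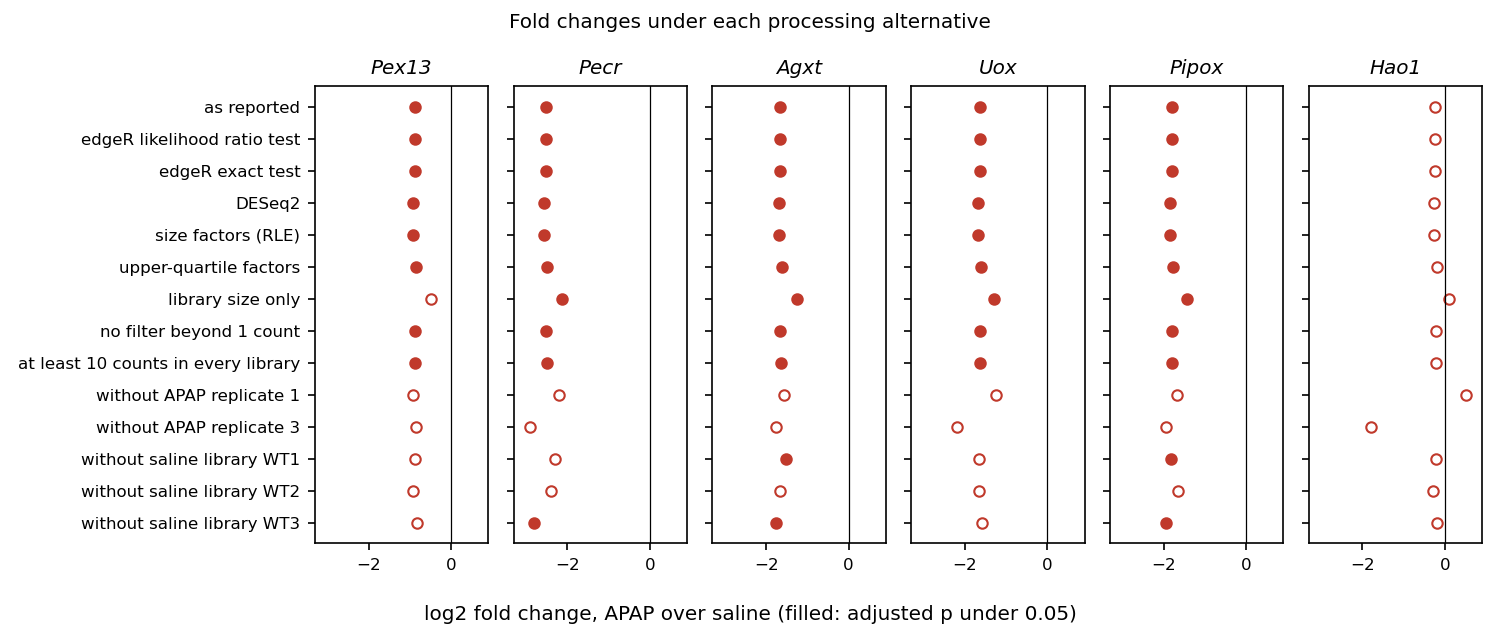
Log2 fold change, APAP over saline, of the 5 genes that passed the test and of Hao1, in the fit as reported and in 13 others, with filled points for an adjusted p under 0.05. The points of Agxt stay between −1.76 and −1.26, whereas Hao1 moves from −1.78 without APAP replicate 3 to 0.51 without APAP replicate 1.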

How the data were processed

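Total RNA of livers was sequenced on an Illumina NovaSeq platform. The authors deposited raw counts of reads for each gene in each library, obtained with HISAT2. The submitters' processing notes name GRCm38 (mm10). The strand setting and versions are not given in the sources used here. Columns named WT were read as saline, and 5 FPKM columns were not used. Annotation was from GENCODE M21, where 34267 of 34745 gene identifiers were found.

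The analysis used edgeR 4.0.16 (R 4.3.3) on these counts (filterByExpr with a minimum count of 10 and a minimum total of 15, TMM, glmQLFit and glmQLFTest, Benjamini-Hochberg adjustment over all genes tested). The steps were tested on simulated data. Alternatives were the likelihood ratio and exact tests, DESeq2 1.42.0, other scalings and filters, and each library left out. No protein sequences were used here. The genes and lists were chosen with earlier results of these data known. Every listed gene is named. Of other peroxisomal genes and regulators, those with an adjusted p under 0.05 are named, with Ehhadh, Hsd17b4, Cat, Ppara, Rxra and Ppargc1a in any case. Genes of these lists that the rule also names but the text does not are not reported here.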

Additional observations from a re-analysis of the deposited data

How the results depend on the processing

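Of 390 recomputed log2 fold changes, 330 kept their direction and their side of the threshold. Genes called numbered 993 as reported, 1835 with the likelihood ratio test, 1776 with the exact test, 2093 with DESeq2, 235 to 401 with 1 APAP library left out and 165 to 510 without WT2 or WT1 (922 without WT3). The genes described numbered 5, 9 (DESeq2) and 0 to 4, and the other peroxisomal genes 2, 12 (likelihood ratio), 12 (exact), 16 (DESeq2), 7 (no filter beyond 1 count), 5 (at least 10 counts in every library) and 0 to 4. The median of the 30 genes was −0.27 to −0.17 with 1 library left out and 0.16 with library size only. That scaling also reversed Pex5 (0.30), Pex14 (0.33), Pex2 (0.18), Pex26 (0.15), Pex3 (0.25), Pex11g (0.34), Abcd3 (0.0588), Acox3 (0.0754), Amacr (0.10), Scp2 (0.19), Acot8 (0.36), Hao1 (0.0936) and Gnpat (0.0654), none of them called. Acot8 was 0.0309 with upper-quartile factors and 0.0042 with at least 10 counts in every library. With 1 library left out, the log2 fold change changed sign for Pex26 (−0.70 to 0.18, 0.0411 without WT3), Pex16 (−0.0095 to 0.54), Scp2 (−0.90 to 0.29, 0.0038 without WT1), Acot8 (−0.28 to 0.22), Crat (−0.13 to 0.78, −0.0938 without WT1, −0.0181 without APAP replicate 1), Hao1 (−1.78 to 0.51), Pex11g (−0.19 to 0.078, −0.1579 without APAP replicate 1, 0.03 without APAP replicate 3), Abcd2 (−0.26 to 1.01) and Pex14 (−0.15 to 0.0094). With 1 APAP library left, it was assumed to vary like the saline group. The causes were not tested. No paired analysis was possible because the saline columns carry no tie to the numbered saline samples.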

Other observations

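Short motifs of known liver factors were searched on both strands in the 33 start-site windows of the 26 genes with one. They were also searched in all 32851 windows given, not limited to the genes tested here. The letters CAAAGTCCA, the core of the HNF4 element, occurred in 2 windows (6.06%), those of Abcd3 and Pipox, beside 0.475% of all windows. The core of the antioxidant response element, TGACNNNGC, occurred in 6 windows (18.2%), of Hao1, Scp2, Pex11g, Pex7 and Acox2, beside 12.4%. The direct repeat 1 of PPAR and RXR, AGGTCA repeated with 1 base between (0.0396% of all windows), the D-box TTATGTAA (0.938%), the C/EBP palindrome TTGCGCAA (0.183%) and, on the strand of the gene only, TATAAA (8.32%) were in none of the 33 windows. A match describes the letters and is no binding site, and the windows of 1 gene can overlap.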
